A study of Homo sapiens with 6 samples.

Results

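The genes examined here were 10 parts of the machinery that marks cell cycle proteins for destruction, measured after silencing of C1GALT1 in AGS, a gastric adenocarcinoma cell line of human origin. C1GALT1 is the galactosyltransferase that builds the core 1 structure of O-glycans. The set was given as a list of names, drawn up with earlier results of these data known: CDC20, FZR1, UBE2C, UBE2S, FBXO5, PTTG1, SKP2, CKS1B, CKS2 and CDC27, that is 10 of 22438 genes that could be named on the array. They were represented by 12 of 58201 different gene probes. Cells in RPMI1640 medium with 10% FBS were transfected at 10 nM with si-Control, a nontargeting siRNA, or with si-C1GALT1-3, an siRNA against C1GALT1, and RNA was taken after 48 h. Each group had 3 samples with 1 single-colour array per sample, and replicates of the same number lay on the same slide. All of the knockdown arrays carried RNA from a single siRNA sequence in a single cell line, so loss of C1GALT1 and any other action of that siRNA cannot be told apart.

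The anaphase-promoting complex/cyclosome (APC/C) is a many-subunit ubiquitin ligase that ends mitosis by sending securin and mitotic cyclins to the proteasome, and then holds cells in G1. Its choice of substrate is set by a coactivator, CDC20 in mitosis and FZR1 (CDH1) afterwards, and its ubiquitin comes through the conjugating enzymes UBE2C and UBE2S. SCF-SKP2 is a cullin-based ligase in which the F-box protein SKP2, helped by the small protein CKS1B, recognises phosphorylated CDK inhibitors such as p27 and opens the way into S phase. The systems are linked, since APC/C with FZR1 degrades SKP2. Most of the regulators are made in waves through the cell cycle, whereas the core subunits of both ligases are made more steadily. In RNA from a whole culture, fewer cells in a given cycle phase and less RNA per cell cannot be told apart.

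Promoters are shown because several of these genes are known to be transcribed together late in the cell cycle. A window each of CDC20, CKS1B, CKS2, FBXO5 and PTTG1 is printed. Windows of FZR1, UBE2S and CDC27 that also held a motif described below are not. The sequences are RefSeq promoter windows of GRCh38.p14, from 250 bases before to 50 bases after the transcription start, written 5′ to 3′ on the strand of the gene. Capitals mark the CHR element TTTGAA, the CCAAT box, and the E2F-like words TTGGCGC and also TTCCCGC and also TTCGCGC and also TTGCCGC, each on either strand. The windows lie at chr1:43358731-43359030 (+) for CDC20, chr1:154974431-154974730 (+) for CKS1B, chr9:89310945-89311244 (+) for CKS2, chr6:152982992-152983291 (-) for FBXO5 and chr5:160421605-160421904 (+) for PTTG1.
CDC20: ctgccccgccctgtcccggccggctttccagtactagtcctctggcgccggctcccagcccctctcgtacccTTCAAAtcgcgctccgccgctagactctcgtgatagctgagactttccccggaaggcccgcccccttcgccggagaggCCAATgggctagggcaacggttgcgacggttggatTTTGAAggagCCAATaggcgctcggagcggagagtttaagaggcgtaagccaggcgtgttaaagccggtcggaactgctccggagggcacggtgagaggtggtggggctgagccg
CKS1B: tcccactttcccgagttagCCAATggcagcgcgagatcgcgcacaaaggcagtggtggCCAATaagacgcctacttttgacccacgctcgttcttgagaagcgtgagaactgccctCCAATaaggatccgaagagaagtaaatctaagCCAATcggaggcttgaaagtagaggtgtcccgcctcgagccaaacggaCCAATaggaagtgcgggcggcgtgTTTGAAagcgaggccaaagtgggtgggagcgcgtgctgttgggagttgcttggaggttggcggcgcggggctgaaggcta
CKS2: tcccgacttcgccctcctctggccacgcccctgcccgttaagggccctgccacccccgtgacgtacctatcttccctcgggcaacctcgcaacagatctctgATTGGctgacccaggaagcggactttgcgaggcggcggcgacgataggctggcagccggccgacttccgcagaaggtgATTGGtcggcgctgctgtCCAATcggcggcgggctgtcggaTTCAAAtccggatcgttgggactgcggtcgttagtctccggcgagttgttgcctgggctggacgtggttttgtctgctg
FBXO5: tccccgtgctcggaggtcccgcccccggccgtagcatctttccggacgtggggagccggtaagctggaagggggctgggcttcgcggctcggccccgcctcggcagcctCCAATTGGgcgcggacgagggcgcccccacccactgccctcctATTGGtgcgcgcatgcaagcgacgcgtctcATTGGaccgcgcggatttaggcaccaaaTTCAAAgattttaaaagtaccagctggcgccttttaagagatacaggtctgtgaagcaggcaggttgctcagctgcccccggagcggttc
PTTG1: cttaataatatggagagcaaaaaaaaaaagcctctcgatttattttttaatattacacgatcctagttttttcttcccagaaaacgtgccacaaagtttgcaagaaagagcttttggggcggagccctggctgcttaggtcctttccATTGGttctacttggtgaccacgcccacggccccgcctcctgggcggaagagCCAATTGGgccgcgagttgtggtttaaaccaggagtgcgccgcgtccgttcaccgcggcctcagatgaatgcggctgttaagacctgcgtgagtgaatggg

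A CHR together with at least 1 CCAAT box was present in the printed windows of CDC20, CKS1B, CKS2 and FBXO5. The CHR of CDC20 nearest the start began 65 bases upstream, that of CKS1B 30, that of CKS2 29 and that of FBXO5 40 bases upstream. PTTG1 held 3 CCAAT boxes and no CHR. Of the 12 windows listed for 9 of the members, 5 held a CHR (41.7%), against 15.2% of all 35116 windows of the same length. A CCAAT box was found in 8 (66.7%), against 34.6% of all windows, and both motifs in 4 (33.3%), against 5.9%. An E2F-like word was found in 2 (16.7%), against 13% of all windows. FZR1 held a CHR in 1 window and E2F-like words in the other. UBE2S held a CCAAT box, and CDC27 a CCAAT box and an E2F-like word. The window of SKP2 and the other window of FBXO5, which is not printed, held none of these motifs. UBE2C is the member without a window. The pair of PTTG1 windows shares 245 bases and the same 3 CCAAT boxes. Counted once per gene, in any of its windows, a CHR was present in 5 of 9 members, against 18.2% of all genes in the table, and a CCAAT box in 7 of 9, against 39.7%. A match describes the letters of a window and not binding.

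C1GALT1 itself was checked on every array. Replicates 1, 2 and 3 of si-Control gave a normalized log2 signal of 12.22, 13.03 and 12.62, and those of si-C1GALT1-3 gave 11.76, 11.98 and 11.13. This order of replicates is kept for every gene. All of the knockdown arrays lay below all of the control arrays. The mean went from 12.62 ± 0.40 to 11.62 ± 0.44 (SD, n = 3 arrays per group), with a 95% interval of the difference from -1.77 to -0.23 (SE 0.31, limma's adjusted p = 0.265). C1GALT1 did not pass the threshold used here, p under 0.01 with at least 2-fold. The share of gene spots well above background ran from 66.2% to 72.7% over the arrays. On si-Control replicate 2, a block of 9712 spots (15.9% of gene spots) had low signal and was set to missing. On each of the 6 arrays all 12 member probes exceeded background clearly, by the software's own mark, and 1 of them, the brighter CKS1B probe, lay in that block. The epithelial markers EPCAM, KRT8, KRT18, KRT19 and CLDN4 did so on each of the 6 arrays too. Of 10 markers of leukocytes, fibroblasts and endothelial cells, 7 did as well, including PTPRC at 13.56 to 14.34, whereas LUM did on no array. None of the 15 markers passed the threshold, but 8 of the 10 markers of other cell types and 4 of the 5 epithelial markers were lower in sign. PDGFRB differed by -0.81, VWF by -1.03 and COL3A1 by 1.17, each at p under 0.05 before adjustment. Summed linear signals rested mostly on single probes, PTPRC (98.4% of the leukocyte sum), PDGFRB (78.5% of the fibroblast sum) and VWF (77.7% of the endothelial sum), and 2 of the 4 fibroblast markers were higher in sign. The sum over 5 epithelial markers was 429000 to 657000 in si-Control and 341000 to 594000 in si-C1GALT1-3. The sum over 3 leukocyte markers was 12900 to 21200 in si-Control and 12300 to 13800 in si-C1GALT1-3. That of 4 fibroblast markers was 10900 to 13000 on the 2 si-Control arrays with all of them measured and 7630 to 8920 in si-C1GALT1-3, and that of 3 endothelial markers was 980 to 1320 on the 2 such arrays and 564 to 799 in si-C1GALT1-3. The part of these markers in the results was not tested.

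Silencing with si-C1GALT1-3 was accompanied by lower signal of most of these regulators. CDC20, UBE2C, PTTG1, SKP2, CKS1B and CKS2 fell, between 2.28-fold and 2.96-fold, whereas FZR1, UBE2S, FBXO5 and CDC27 did not pass the threshold. With the slide as a replicate block, CDC20, UBE2C and PTTG1 passed, and the calls of SKP2, CKS2 and the CKS1B probe used here were lost. Among all 58193 probes tested, 0.992% passed as lower and 1.65% passed as higher in si-C1GALT1-3, against 6 and 0 of the 10 members. Every knockdown array lay below every control array for 8 members, against 10.4% of all probes, and above for none, against 11% of all probes. The median difference was -1.20 over the 10 members and 0.019 over all named genes. With Benjamini-Hochberg adjustment over all probes, 0 members had an adjusted p under 0.05 in limma, the smallest among their lead probes being 0.107, although 8 members had an unadjusted p under 0.05. At that adjusted threshold 49 probes of the whole array passed. CDC20, UBE2C, PTTG1, SKP2 and CKS1B had been picked from these same arrays for published gene lists, so their calls are not independent evidence. All 5 of those genes passed here, against 1 of the other 5 members, CKS2, and the median over those other 5 was -0.70.

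**Figure D1:**
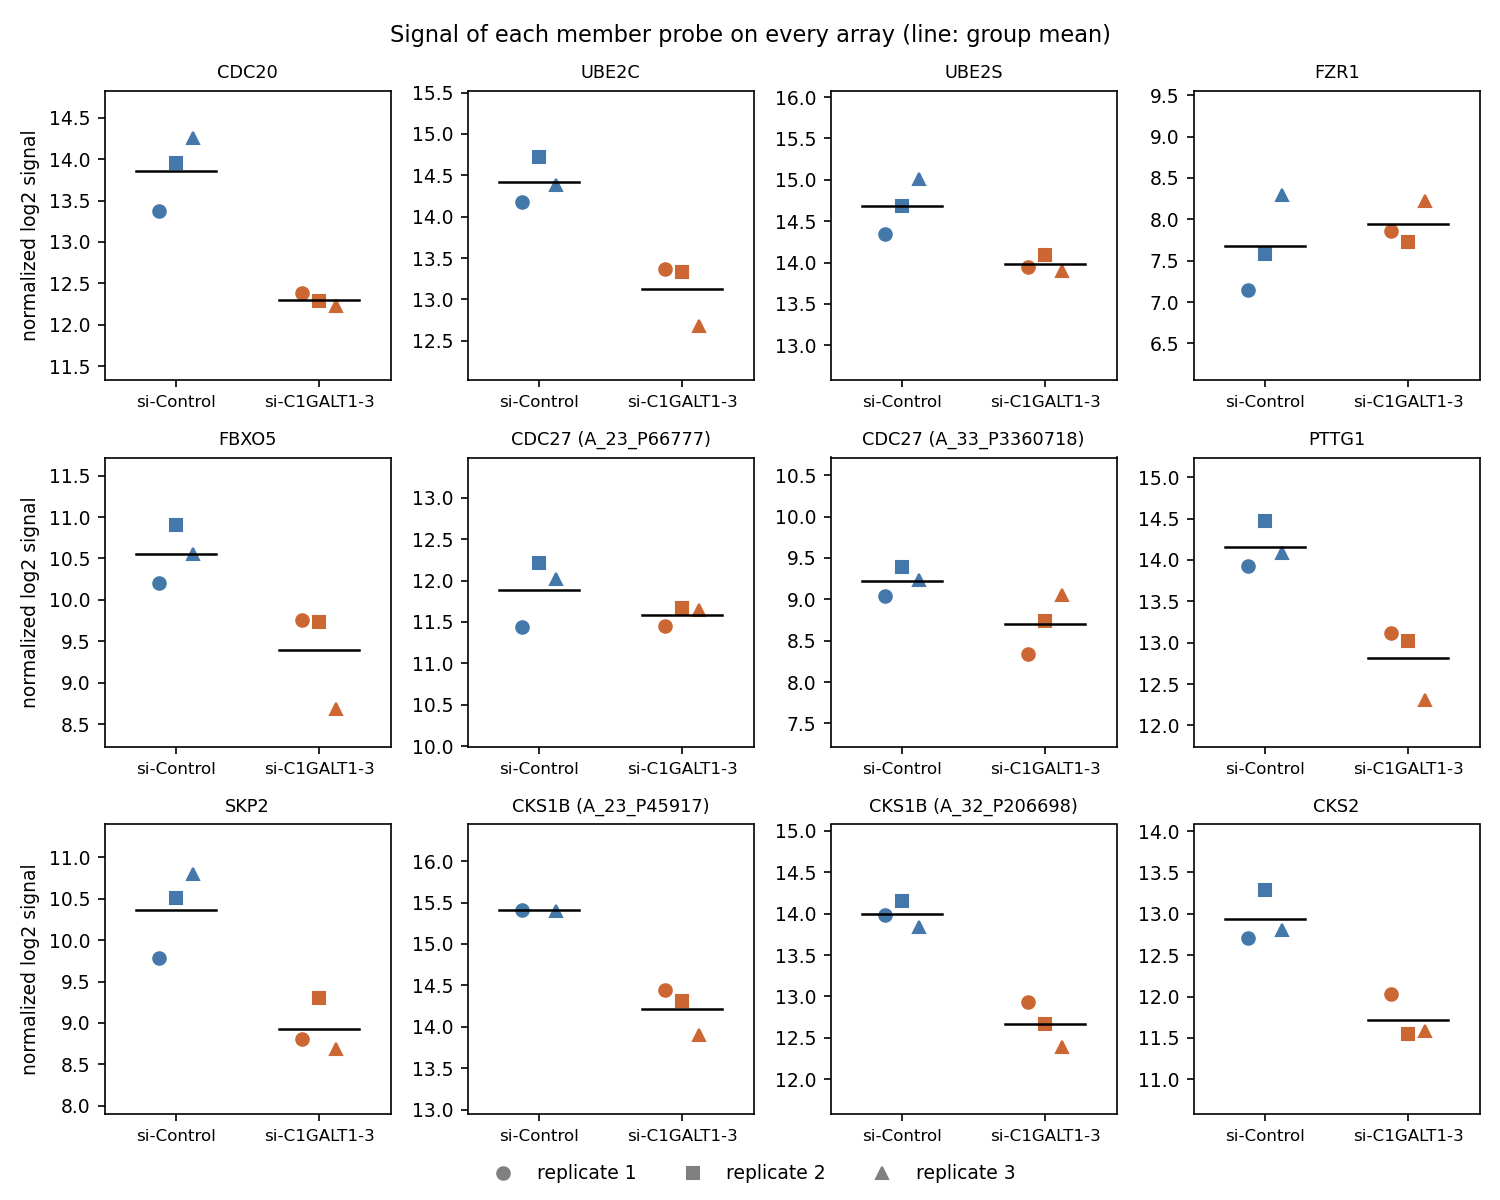
Normalized log2 signal of each of the 12 member probes (y axis, each panel spanning the same number of log2 units) in si-Control and si-C1GALT1-3, with 1 symbol shape per replicate number and a line at the group mean. The knockdown arrays lie below the control arrays in every panel except those of FZR1 and the CDC27 probes, and the CKS1B probe A_23_P45917 has no value on si-Control replicate 2.

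Of the coactivators of APC/C, CDC20 fell and FZR1 did not pass the threshold. CDC20, the mitotic coactivator and the target of the spindle checkpoint, had a log2 signal of 13.38, 13.95 and 14.26 in si-Control and 12.38, 12.29 and 12.22 in si-C1GALT1-3. The knockdown arrays were close to each other and all lay below the control arrays. CDC20 fell 2.96-fold, a log2 difference of -1.56 (SE 0.25, 95% interval -2.18 to -0.95, limma adjusted p = 0.107), and the mean went from 13.86 ± 0.45 to 12.30 ± 0.081 (SD, n = 3 arrays per group). It passed with any single array left out. FZR1, the coactivator of late mitosis and G1, was much dimmer, at 7.15, 7.58 and 8.30 in si-Control and 7.86, 7.73 and 8.23 in si-C1GALT1-3. The groups overlapped for FZR1, and the difference of 0.26 (SE 0.33, 95% interval -0.55 to 1.07, limma adjusted p = 0.786) was within the spread between arrays. Without si-Control replicate 1 it was -0.0014.

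The conjugating enzymes that hand ubiquitin to APC/C were both lower on every knockdown array. UBE2C, which places the initial ubiquitin on APC/C substrates, had log2 signals of 14.17, 14.72 and 14.39 in si-Control and 13.36, 13.33 and 12.68 in si-C1GALT1-3. It fell 2.46-fold, by a log2 difference of -1.30 (SE 0.26, 95% interval -1.93 to -0.67, limma adjusted p = 0.141), and passed with any single array left out. Without normalization between arrays UBE2C did not pass, at -1.25. UBE2S, which extends the chain, was at 14.35, 14.68 and 15.01 in si-Control and 13.95, 14.10 and 13.89 in si-C1GALT1-3. Its groups did not overlap either, but the difference of -0.70 (SE 0.20, 95% interval -1.20 to -0.20, limma adjusted p = 0.241) did not pass the threshold. Whether UBE2C and UBE2S differed in their response was not tested.

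FBXO5 (EMI1), the inhibitor that keeps APC/C off through S phase and G2, read 10.20, 10.90 and 10.55 in si-Control and 9.75, 9.73 and 8.68 in si-C1GALT1-3. All of the knockdown values lay below the control values, with replicate 3 the lowest. The difference of -1.16 (SE 0.36, 95% interval -2.05 to -0.27, limma adjusted p = 0.265) was more than 2-fold but did not pass on p. FBXO5 passed with normexp background correction (-1.02), without background correction (-1.03) and with dim probes left out (-1.16). CDC27 (APC3), a core subunit that binds the coactivators, was at 11.44, 12.21 and 12.02 in si-Control and 11.45, 11.66 and 11.64 in si-C1GALT1-3 with its brighter probe. Its groups overlapped, with a difference of -0.30 (SE 0.23, 95% interval -0.88 to 0.27, limma adjusted p = 0.628). With 1 array left out that difference ran from -0.53 without si-Control replicate 1 to -0.14 without si-Control replicate 2. The other CDC27 probe, A_33_P3360718, also overlapped between groups, with a difference of -0.51 (SE 0.22, 95% interval -1.07 to 0.040, limma adjusted p = 0.393).

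PTTG1, or securin, is the APC/C substrate that restrains separase until anaphase. It had log2 signals of 13.93, 14.47 and 14.08 in si-Control and 13.12, 13.02 and 12.30 in si-C1GALT1-3. The groups were separated, and PTTG1 fell 2.54-fold, a log2 difference of -1.35 (SE 0.28, 95% interval -2.03 to -0.66, limma adjusted p = 0.15). It no longer passed without si-Control replicate 2, where the difference was -1.19, or without si-Control replicate 3, where it was -1.39. Its close relatives PTTG2 and PTTG3P also fell, by log2 differences of -1.41 (SE 0.30, limma adjusted p = 0.158) and -1.53 (SE 0.26, limma adjusted p = 0.12). PTTG2 lost its call without si-Control replicate 1 (-1.43) or 2 (-1.23) and without si-C1GALT1-3 replicate 2 (-1.50), whereas PTTG3P passed with any single array left out. Without normalization between arrays neither passed, at -1.33 and -1.42. PTTG3P was at 9.47, 10.02 and 9.40 in si-Control and 8.33, 8.28 and 7.69 in si-C1GALT1-3. The copies are near identical in sequence, and whether their probes also bind PTTG1 RNA was not tested. The 3 genes are therefore not taken as independent observations, although the counts of calls below include PTTG2 and PTTG3P. PTTG2 and PTTG3P were also among the genes picked from these arrays. ESPL1 (separase), the protease that securin restrains, had a difference of -0.73 (SE 0.34, limma adjusted p = 0.422) and did not pass.

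In the SCF arm, SKP2, the F-box protein itself, gave log2 signals of 9.78, 10.51 and 10.81 in si-Control and 8.81, 9.30 and 8.68 in si-C1GALT1-3. All of the knockdown arrays lay below the controls. SKP2 fell 2.71-fold, a log2 difference of -1.44 (SE 0.32, 95% interval -2.23 to -0.64, limma adjusted p = 0.166). This call was lost without si-Control replicate 2 or 3, with differences of -1.36 and -1.22, and without si-C1GALT1-3 replicate 1 or 3, with differences of -1.38 and -1.31. It was also lost with the replicate block (adjusted p = 0.204).

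CKS1B, the accessory protein through which SKP2 reads phosphorylated p27, was measured by a pair of probes. The brighter probe gave 15.41 and 15.40 on si-Control arrays 1 and 3, with no value on array 2, and 14.45, 14.32 and 13.90 in si-C1GALT1-3. With 2 control arrays its difference was -1.19 (SE 0.22, 95% interval -1.76 to -0.61, limma adjusted p = 0.154), a 2.28-fold fall. That call was lost without si-C1GALT1-3 replicate 2 (-1.23) and with the replicate block (adjusted p = 0.229). Leaving out si-Control replicate 1 or 3 left this probe a single control array, whose spread was taken from the other arrays, and the call was not made there (-1.18 and -1.19). The other probe, A_32_P206698, lay outside the low-signal block and was measured on all 6 arrays. It read 13.98, 14.15 and 13.84 in si-Control and 12.94, 12.66 and 12.39 in si-C1GALT1-3, again with no overlap. It fell 2.51-fold, a log2 difference of -1.33 (SE 0.19, 95% interval -1.80 to -0.86, limma adjusted p = 0.094), and passed with any single array left out.

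CKS2, the paralogue of CKS1B that binds CDK1 complexes, had log2 signals of 12.71, 13.29 and 12.80 in si-Control and 12.03, 11.55 and 11.58 in si-C1GALT1-3. The groups did not overlap, and CKS2 fell 2.32-fold, a log2 difference of -1.21 (SE 0.23, 95% interval -1.78 to -0.64, limma adjusted p = 0.136). It did not pass without si-C1GALT1-3 replicate 2, where the difference was -1.13, and with the replicate block (adjusted p = 0.21). RefSeq lists pseudogenes named after several members, 11 for CDC27, 7 for CKS1B, 5 for UBE2C and 2 each for UBE2S and PTTG1, and whether their RNA adds to these signals was not tested.

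**Figure D2:**
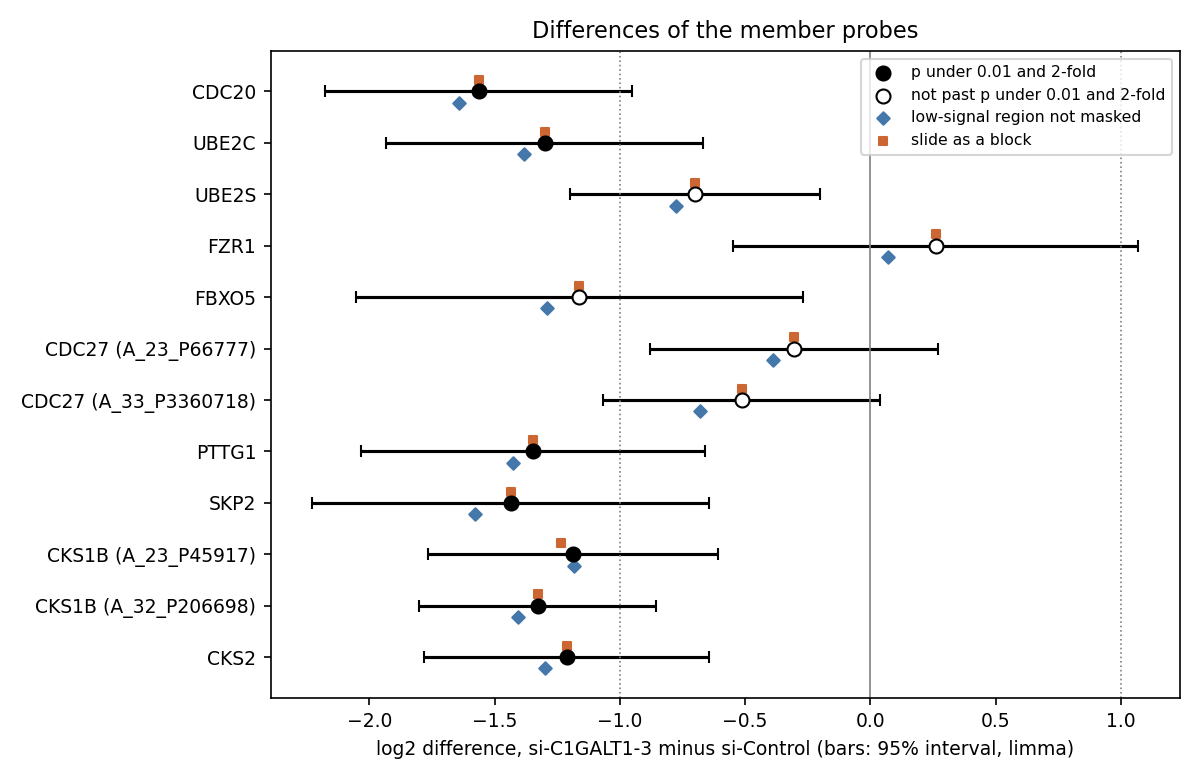
Log2 difference, si-C1GALT1-3 minus si-Control, for each member probe with its 95% interval from limma (x axis), with dotted lines at 2-fold. Filled points passed p under 0.01 and 2-fold, open points did not, diamonds show the value with the low-signal block kept, and squares the value with the slide as a block. The diamond of the CKS1B probe A_23_P45917 also lacks si-Control replicate 2, where that probe had no value even with the low-signal block kept. FZR1 alone lies above 0, at 0.26.

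Since replicates of the same number shared a slide, the difference could also be read within each slide. For this the CKS1B probe with values on all 6 arrays was used. Of the 10 members, 8 were lower in si-C1GALT1-3 on every slide, all but FZR1 and CDC27. The brighter CDC27 probe stood at 0.012 on the slide of replicates 1, whereas its other probe was lower on every slide, at -0.71, -0.65 and -0.18, with the smallest difference on the slide of replicates 3. In each of these 8 the difference was smallest on the slide of replicates 1, and it was largest on the slide of replicates 3 in 6 and on that of replicates 2 in CKS1B and CKS2. CDC20 gave -0.99, -1.66 and -2.04 on the slides of replicates 1, 2 and 3, and SKP2 gave -0.97, -1.21 and -2.12. C1GALT1 itself gave -0.47, -1.05 and -1.49 on the same slides. Over all named genes the median difference within a slide was 0.048, 0.024 and 0.0008. Whether the size of the fall in these genes goes with that of C1GALT1 was not tested. On every slide si-Control took the same position, so position and treatment cannot be told apart.

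**Figure D3:**
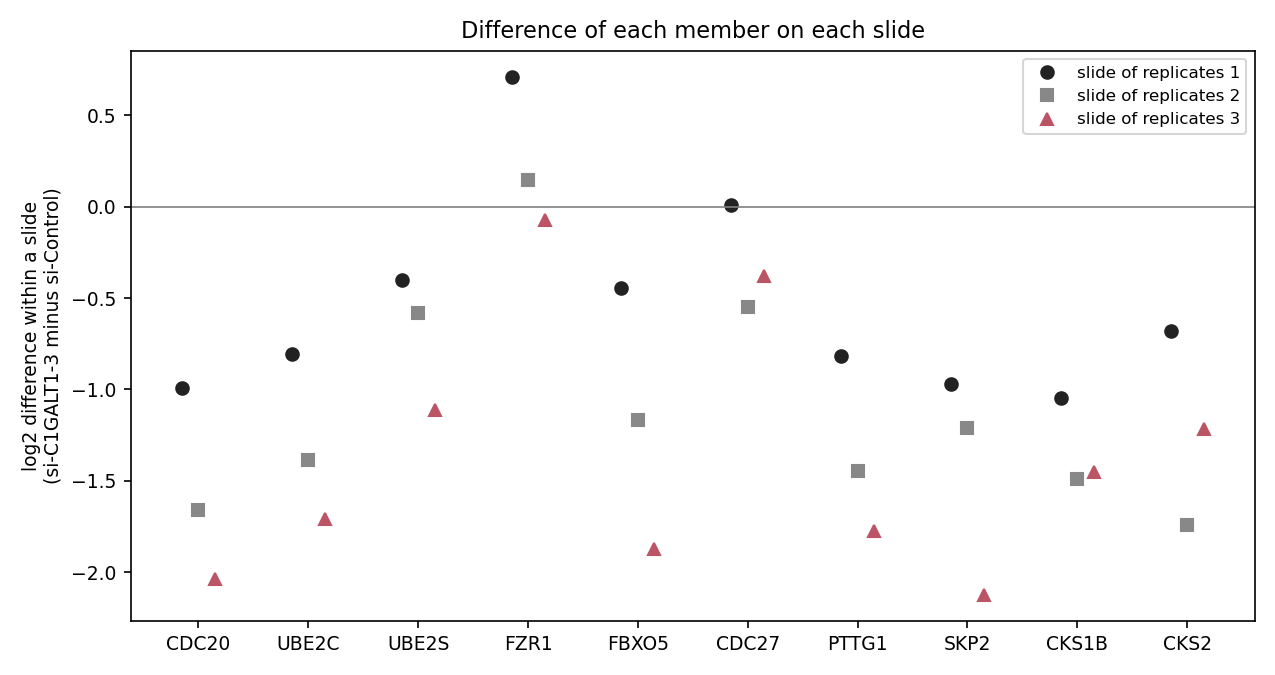
Log2 difference within each slide (y axis, si-C1GALT1-3 minus si-Control) for each member, with 1 symbol per slide and CKS1B drawn from the probe measured on all 6 arrays. The slide of replicates 1 gives the difference nearest 0 in the 8 members that were lower on every slide.

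The 3 members that passed with the replicate block were CDC20 (limma adjusted p = 0.187), UBE2C (adjusted p = 0.191) and PTTG1 (adjusted p = 0.191), and the second CKS1B probe also passed (adjusted p = 0.18). Leaving out si-Control replicate 1, 2 or 3 left 5, 4 and 3 members past the threshold, and leaving out si-C1GALT1-3 replicate 1, 2 or 3 left 5, 4 and 5. CDC20 and UBE2C were past it in each of these 6 fits. Across all probes 37.5% of calls were lower in si-C1GALT1-3, against 59.8% with the low-signal block kept and 27.4% without normalization between arrays, whereas 9 of 10 members kept a negative sign in both.

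The core of APC/C was represented by 13 subunits besides CDC27, and 0 passed as lower and 0 as higher, shares near those of all probes (0.992% and 1.65%). Their median difference was 0.18, against 0.019 over all named genes, and 9 were higher and 4 lower in sign. That median was 0.060 without si-Control replicate 1, 0.024 with the low-signal block kept and 0.30 without normalization between arrays. Every knockdown array lay above every control array for 3 subunits, ANAPC13, CDC23 and ANAPC5, and below for 1, ANAPC11, against 11% and 10.4% of all probes. ANAPC11, the RING subunit that works with the conjugating enzymes, was lower on every knockdown array, at 14.59, 14.81 and 14.52 in si-Control and 14.18, 14.10 and 13.72 in si-C1GALT1-3, a difference of -0.64 (SE 0.18, limma adjusted p = 0.229) that did not pass. ANAPC13, a small subunit that steadies the complex, was at 12.56, 12.72 and 12.54 in si-Control and 13.43, 13.46 and 13.39 in si-C1GALT1-3. Every knockdown array was higher, by 0.82 on the log2 scale (SE 0.13, limma adjusted p = 0.101), which is less than 2-fold. CDC23, a scaffold subunit, differed by 0.71 (SE 0.19, limma adjusted p = 0.217) and ANAPC5 by 0.27 (SE 0.14, limma adjusted p = 0.467). Among 7 genes of the mitotic checkpoint, which holds CDC20 in check until chromosomes are attached, the median was -0.45, or -0.21 with the low-signal block kept, and 1 passed as lower. That gene was MAD2L1, a protein that binds CDC20 directly, with log2 signals of 13.31, 13.94 and 13.74 in si-Control and 12.70, 12.54 and 12.33 in si-C1GALT1-3. It fell by 1.14 on the log2 scale (SE 0.21, limma adjusted p = 0.133), and it was also among the genes picked from these arrays. Of these 7 checkpoint genes 6 were lower in sign, against 47.6% of all named genes, or 4 with the low-signal block kept. Every knockdown array lay below every control array for 4 and above for 1, against 10.4% and 11% of all probes. TRIP13 differed by -1.15 (SE 0.37, limma adjusted p = 0.303) and BUB1B by -0.81 (SE 0.28, limma adjusted p = 0.318). Neither passed, and both probes lay in that block, with 2 control arrays each. By another probe TRIP13 differed by -0.76.

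Known APC/C substrates other than the members were lower in sign in si-C1GALT1-3, but most did not pass the threshold. All 22 measured had a negative sign, against 47.6% of all named genes, although 18 of 22 did with the low-signal block kept. The median difference was -1.04. Of the 22, 7 passed as lower, against 0.992% of all probes, and none as higher. Every knockdown array lay below every control array for 18, against 10.4% of all probes. Among those 18, CCNB1, CDC6, CDCA5 and NUSAP1 had values on only 2 control arrays, as did GMNN, whose groups overlapped. CKAP2, a spindle protein, fell by 1.61 (SE 0.42, limma adjusted p = 0.207), with 8.82, 9.64 and 9.06 in si-Control and 7.78, 8.15 and 6.77 in si-C1GALT1-3. BUB1, a checkpoint kinase, fell by 1.39 (SE 0.35, limma adjusted p = 0.199). The spindle protein HMMR fell by 1.21 (SE 0.25, limma adjusted p = 0.15), and FOXM1, a transcription factor of mitotic genes, fell by 1.19 (SE 0.25, limma adjusted p = 0.157). AURKB, CCNA2 and TPX2 were the others that passed. With the replicate block CKAP2 (adjusted p = 0.196) and HMMR (adjusted p = 0.181) passed, whereas BUB1 (adjusted p = 0.235), FOXM1 (adjusted p = 0.218), AURKB, CCNA2 and TPX2 lost their calls. Of the 7 substrates that had been picked from these arrays 3 passed, and of the 15 others 4 passed, with a median of -0.96. These counts rest on the brightest probe of each gene. By any probe 9 of 22 passed as lower, through another probe of CCNB1 (-1.04) and of SGO1 (-1.22), both among the picked genes. CKAP2, BUB1, HMMR, FOXM1, AURKB and TPX2 each lost the call in at least 3 of the 6 fits with 1 array left out. CCNA2 kept it in all 6. In the fits where CKAP2 lost the call, its difference lay between -1.78 and -1.21. The count of 7 was 9, 1 and 3 without si-Control replicate 1, 2 or 3, was 6, 4 and 1 without si-C1GALT1-3 replicate 1, 2 or 3, and was 3 with the replicate block, where SGO1 was gained. PLK1 was not analysed here.

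Around SKP2 no list had a gene past the threshold, in either direction, where 0.992% of all probes passed as lower and 1.65% as higher, so these counts of 0 lie near the background. None of 8 genes of the SCF core and cullin cycle passed, with a median of 0.014 and a range of -0.19 to 0.16. That median ran from -0.13 without si-Control replicate 1 to 0.20 without si-Control replicate 3. The largest difference there was that of UBE2M, the NEDD8-conjugating enzyme that activates cullins, at -0.19 (SE 0.27, limma adjusted p = 0.827). CAND1 was not analysed here. None of 6 other F-box proteins of the cell cycle passed, with a median of -0.27, and CCNF (cyclin F), which acts in G2, had the largest difference at -0.58 (SE 0.24, limma adjusted p = 0.378). Among 8 known SCF-SKP2 substrates none passed, and the differences ran from -0.86 to 0.98 with a median of -0.027. Its sign turned with single arrays, from -0.34 without si-C1GALT1-3 replicate 2 and -0.30 without si-Control replicate 3 to 0.11 without si-Control replicate 1 or 2. Of these genes, 1 passed as higher without normalization. TOB1, an antiproliferative protein, was higher on every knockdown array, with 12.71, 13.41 and 13.26 in si-Control and 13.88, 13.97 and 14.46 in si-C1GALT1-3. Its difference of 0.98 (SE 0.26, limma adjusted p = 0.213) was just under 2-fold. CDKN1B (p27), the best known substrate of SKP2, differed by -0.47 (SE 0.21, limma adjusted p = 0.41). SKP2 sets its level through protein stability, which RNA does not measure.

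**Figure D4:**
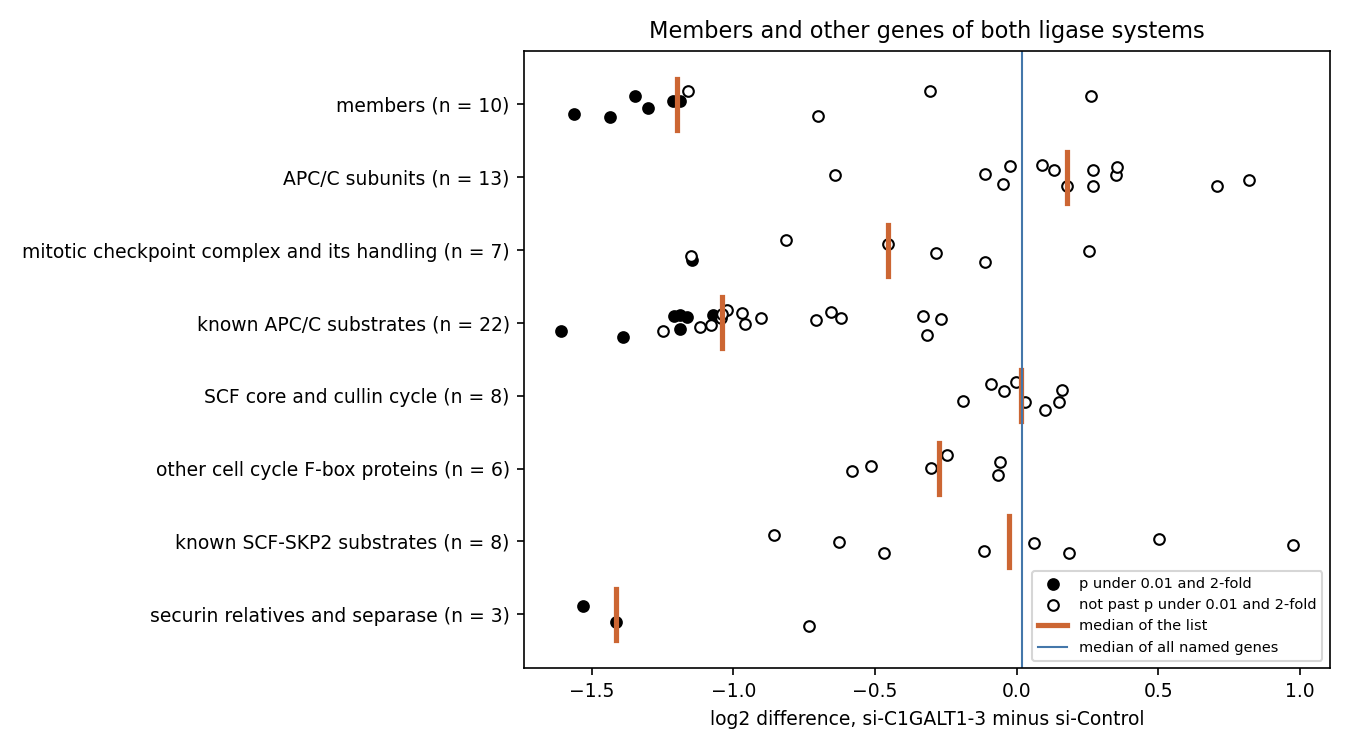
Log2 difference, si-C1GALT1-3 minus si-Control (x axis), of the 10 members and of the genes in 7 lists of both ligase systems, with 1 point per gene. Filled points passed p under 0.01 and 2-fold, the short bars are list medians and the long line is the median of all named genes (0.019). The members, the APC/C substrates and the securin relatives have medians under -1, whereas the APC/C subunits and the SCF core lie around 0.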

How the data were processed

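RNA of AGS cells was hybridised to 6 single-colour Agilent arrays, 3 of si-Control and 3 of si-C1GALT1-3. The authors deposited the scanner output of Agilent Feature Extraction 10.5.1.1, in which each value is a fluorescence intensity per spot, corrected for background by that software and not normalized between arrays. A deposited table of the whole series holds background-subtracted intensity and served as an alternative.

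The processed intensity was converted to log2. Control spots were left out. Spots marked as outliers, 100 to 424 per array, and the low-signal block of si-Control replicate 2 (rows 113 to 288, columns 59 to 115) were set to missing before quantile normalization. Spots of a probe were averaged. Groups were compared two-sided with limma 3.58.1 in R 4.3.3, with Benjamini-Hochberg adjustment over 58193 probes. A call needed at least 2-fold at p under 0.01. RefSeq accessions gave the probes their names through the RefSeq genes of GRCh38.p14, and the probe with the highest mean signal stood for a gene with several. The arrays were designed on another build, so no probe coordinates are given. Promoter windows were searched on both strands for the words given in the text. Precision is limited by the small number of arrays.

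The text names C1GALT1, all members, and in each list up to 4 genes past the threshold with the largest differences or, where none passed, the largest difference among probes well above background. AURKB, CCNA2, TPX2, ESPL1, ANAPC11, CDC23, ANAPC5, CCNB1, SGO1, CDKN1B and the markers were named after their values were seen. The members and lists were chosen with earlier results of these data known.

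The labels do not say that replicates came from separate cultures, so p-values measure the spread between these samples, which may be technical. By the file headers, equal replicate numbers stand for a shared slide, and their deviations from the group means correlated with r = 0.20, 0.214 and 0.318, so equal numbers were treated as possible pairs. The fit reported does not use them, as the study's methods name no block, and its errors, intervals and p-values therefore leave out the pairing. The fit with the replicate block was an alternative, and its calls are given where they differ. Other alternatives were another normalization, background corrections, no masking, outlier spots kept, the series table, dim probes left out, the median over probes, another prior, a test without moderation of the variance, adjusted p, and each array left out. Proteins encoded by the members were not analysed here.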

Additional observations from a re-analysis of the deposited data

How the results depend on the processing

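The median difference of the 10 members stayed negative in each of the 20 alternatives that gave one, lowest at -1.36 when si-C1GALT1-3 replicate 1 was left out and highest at -1.05 when replicate 3 of that group was. For single members these 20 alternatives, which leave out the adjusted p, gave 167 results with the same direction and side of the threshold. Another 29 were no longer past it, 3 newly passed, and 1, FZR1, turned. FZR1 ran from -0.0014 to 0.57 with 1 array left out. Of 10 members, 6 passed in the fit reported. That count was 2 without normalization (CDC20 and SKP2), 3 with the replicate block, and 3 with unmoderated variances (CDC20, UBE2C and CKS2). It was 5 with the series table (all 6 but SKP2), 0 at an adjusted p under 0.05, and 3 to 5 with 1 array left out. Of the genes in the other lists, 10 passed, all as lower, and PTTG2 and PTTG3P are among these 10. Without normalization 0 passed as lower and 1 as higher. The count of lower calls was 18 with normexp, 18 without background correction, 6 with the series table, 16 with dim probes left out, 6 with the replicate block, 5 with unmoderated variances, 0 by adjusted p, and 3 to 12 with 1 array left out. Over all probes 1538 passed, against 915 with normexp, 945 without background correction, 896 with unmoderated variances and 49 by adjusted p. A pair of alternatives was added after seeing the data. With the block and no masking 5 genes of the lists passed, and with the block but without si-Control replicate 2, 0 members and 0 genes of the lists passed as lower and 1 SCF-SKP2 substrate passed as higher. The cause of these changes was not tested. The 75th percentile normalization shifted the median of all probes by -0.10, and 6 members passed under it. The block changed no call of FZR1, UBE2S, FBXO5 or CDC27.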
